A study of Homo sapiens with 12 samples.

Results

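The genes of the malate-aspartate and glycerol phosphate shuttles were examined in K562 cells given an added electron acceptor. The group holds MDH1, MDH2, SLC25A1, SLC25A11, SLC25A12, SLC25A13, GPD1L and GPD2. Its members were found by matching the Ensembl identifiers of the count table to these symbols, and all 8 of 8 were present among 17786 genes and passed the filter on low counts, which left 13598 genes. K562 is an established human line from a chronic myelogenous leukaemia. The 12 libraries of poly(A) RNA formed 3 groups of 4, namely cells left untreated, cells kept for 24 h with alpha-ketobutyrate (AKB) at 2 mM, and cells kept for 24 h with pyruvate at 2 mM. All were grown in RPMI-1640 with 5% fetal bovine serum, glutamine and antibiotics. Whether the libraries of a group stem from separate cultures is not stated in the labels, so p-values here reflect only the spread among libraries, which may be technical.

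The inner mitochondrial membrane does not let NADH through, and shuttles carry its electrons instead. In the malate-aspartate shuttle, cytosolic malate dehydrogenase (MDH1) uses NADH to turn oxaloacetate into malate, the malate enters the matrix through the oxoglutarate carrier (SLC25A11), and mitochondrial malate dehydrogenase (MDH2) makes NADH from it there. The transaminases GOT1 and GOT2 and the aspartate-glutamate carriers (SLC25A12, also called aralar, and SLC25A13, also called citrin) close the cycle. In the glycerol phosphate shuttle, a cytosolic dehydrogenase (GPD1, with GPD1L as its relative) uses NADH to make glycerol 3-phosphate, and GPD2 in the inner membrane passes the electrons on to ubiquinone. SLC25A1 exchanges mitochondrial citrate for malate. AKB and pyruvate are both reduced by lactate dehydrogenase, which uses NADH in the cytosol.

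No member passed the test in any of the 3 comparisons. With AKB against untreated cells 0 of 8 were called, where 1.97% of all genes were. With pyruvate against untreated cells 0 of 8 were called, where 1.95% of all genes were. With AKB against pyruvate 0 of 8 were called, where 3.13% of all genes were. Calls are from the quasi-likelihood test of edgeR at a threshold of 0.05 on the p adjusted by Benjamini-Hochberg over the 13598 genes. At an unadjusted p below 0.05 there were 0, 4 and 3 members in the 3 comparisons, against 13.2%, 28.9% and 24.2% of all genes. DESeq2's Wald test called 0, 1 and 1 members, where 3.95%, 13.7% and 11.3% of all genes were called. With limma-voom the counts were 0, 0 and 0, where 1.90%, 1.62% and 3.10% of all genes were called. The 95% intervals of the 8 fold changes stayed within 1.42-fold for AKB, 1.70-fold for pyruvate and 1.60-fold for AKB against pyruvate, in either direction. The misses are therefore bounded in size, and they do not show that levels were alike.

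Total counts per library ran from 15353200 to 21301073, and the members' own counts from 267 (GPD1L) to 12004 (MDH2). Pyruvate replicates 3 and 4 stood apart from the other 10 libraries along the GC content of the genes. Relative to the mean of all libraries, their log2 CPM had a slope of 0.33 and 0.35 for each 10 percentage points of transcript GC, against −0.16 to 0.02 in the others. Values without that pair are given beside the members' pyruvate results. Without it 0 of 8 members were called in the 3 comparisons, where 9.17%, 0.710% and 4.36% of all genes were, and with a correction for GC content 0, 0 and 1 were, where 8.44%, 9.49% and 14.6% were. The 10 markers of K562 and its erythroid-megakaryocytic character were all tested, and their summed level was 14344 to 16003 CPM in untreated, 15705 to 17486 CPM in AKB and 12216 to 13661 CPM in pyruvate libraries, which were the lowest. Markers with the highest mean level, HBG2 (4875 CPM), TFRC (3134), HBG1 (2872) and HBE1 (2303), weigh most in this sum, which does not describe each marker. For pyruvate against untreated cells 2 of the 10 were called lower and 0 higher, where 1.95% of all genes were called. With the GC correction 5 were called lower and 1 higher, where 9.49% of all genes were. Without pyruvate replicates 3 and 4, 1 was called lower and 0 higher, where 0.710% were. For AKB against untreated cells 1 was called higher and 0 lower (1.97%), also without that pair (9.17%) and with the GC correction (8.44%). For AKB against pyruvate 2 were called higher and 0 lower (3.13%), and without that pair 3 and 0 (4.36%). With the GC correction 7 were higher and 1 lower there (14.6%). The part of these differences in the results was not tested. Of 8 markers of other lineages 5 were in the table, and their sums of 97.3 to 100.1, 95.0 to 100.1 and 83.2 to 108 CPM in the same order came almost wholly from EPCAM, while CD3E and PDGFRB had at most 2 and 5 counts. In bulk RNA, fewer cells and less RNA per cell cannot be told apart.

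In untreated cells the members spanned a wide range of levels per length, taken as CPM per kilobase of the longest transcript (mean ± SD, n = 4). MDH2 stood highest at 208 ± 14.6, followed by SLC25A1 at 124 ± 11.01 and MDH1 at 122 ± 7.68, whose libraries overlapped. SLC25A13 lay at 41.8 ± 0.884, and the other aspartate-glutamate carrier, SLC25A12, at 12.2 ± 0.902. Between these came the oxoglutarate carrier SLC25A11 at 15.1 ± 0.443. The glycerol phosphate pair was lowest, with GPD2 at 8.51 ± 0.459 and GPD1L at 5.08 ± 0.195. Apart from SLC25A1 and MDH1, neighbours in this order did not overlap in any untreated library. The order depends on the length used: with the mean transcript length, MDH1 (232) moved above SLC25A1 (174), and SLC25A12 (31.2) and GPD2 (30.5) moved above SLC25A11 (26.4). GPD1, the cytosolic enzyme of the second shuttle, had at most 31 counts in any library and 0.064 to 1.45 CPM, so GPD1L had the higher CPM of the cytosolic pair.

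The members lie at separate loci, given here from GENCODE 29 on GRCh38, and the counts cover whole protein-coding genes. MDH1 lies on chromosome 2 from 63588609 to 63607197 and MDH2 on chromosome 7 from 76048051 to 76067508, both on the plus strand. SLC25A12 lies on chromosome 2 from 171784370 to 171999859 and SLC25A13 on chromosome 7 from 96120220 to 96322147, both on the minus strand. SLC25A11 lies on chromosome 17 from 4937130 to 4940251 and SLC25A1 on chromosome 22 from 19175575 to 19178830, both on the minus strand. GPD1L lies on chromosome 3 from 32105689 to 32168713 and GPD2 on chromosome 2 from 156435290 to 156613735, both on the plus strand. Exons of 3 members overlap a gene on the opposite strand: MDH1 shares 191 of 4990 exon bases with WDPCP, SLC25A11 shares 244 of 2669 with RNF167 and SLC25A12 shares 181 of 5169 with METAP1D. Use of strand in the counting was not given in the sources used here, so reads from these bases cannot be told apart.

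Promoters were read for elements such as TGATGNAA, which the factor ATF4 of the amino acid response binds, because PSAT1, a serine synthesis enzyme of that response, did not overlap between untreated and treated libraries. It had 196 to 213 CPM in untreated libraries, 99.9 to 107 CPM with AKB and 75.9 to 97.6 CPM with pyruvate. Of all genes tested, 17.2% did not overlap between AKB and untreated libraries, and 10.9% between pyruvate and untreated libraries. PSAT1 was picked after its values were seen. In RefSeq windows of 300 bases at gene starts (GRCh38.p14, searched on both strands), TGATGNAA was present in 3.62% of 35116 windows and in 1 of 10 windows of the members, that of SLC25A11. Among the shuttle partners it was also found at GOT1. The 2 matches are shown with their surroundings because no other of the members' 10 windows or of 11 windows of 7 partners held these letters, which are in capitals. Both are printed on the plus strand, SLC25A11 at chr17:4940099-4940128 and GOT1 at chr10:99430804-99430833, and the motifs begin 71 and 198 bases before the start sites that RefSeq gives. The 2 annotations differ for SLC25A11: its GENCODE gene starts further upstream, at 4940251, so that the match lies inside it.
SLC25A11: aaggaggagctTGATGGAAgcgtgcgagaa
GOT1: gctgccgagaaTGATGCAAccaatgcaatt
In the 12-library fit with edgeR neither gene was called in any comparison. The GC correction called GOT1 lower with pyruvate (log2 −0.20, adjusted p = 0.0350), where 9.49% of all genes were called. Of the other motifs searched on both strands, CACGTG was in 7.26% of all windows and in that of SLC25A13, TGACGTCA was in 1.85% and in no member's window, and GGGCGG was in 45% and in 5 of the members' 10 windows. A match describes these letters only and is not a site of binding.

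The cytosolic dehydrogenase MDH1 measured 215, 202, 205 and 185 CPM in untreated replicates 1 to 4. With AKB it measured 205, 171, 183 and 179 CPM, and with pyruvate 190, 191, 155 and 150 CPM. The AKB and untreated libraries overlapped, and the lower pyruvate values were those of replicates 3 and 4. The log2 difference was −0.13 (SE 0.092, adjusted p = 0.625) for AKB and −0.24 (SE 0.092, adjusted p = 0.130) for pyruvate. Without pyruvate replicates 3 and 4 the latter was −0.08 (adjusted p = 0.671).

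The mitochondrial dehydrogenase MDH2 went the other way in the same pair of libraries. It measured 429, 461, 445 and 504 CPM in untreated cells and 434, 475, 518 and 467 CPM with AKB. With pyruvate it measured 485, 451, 574 and 560 CPM, so replicates 3 and 4 were above every untreated library and replicates 1 and 2 were within their range. The log2 difference was 0.04 (SE 0.086, adjusted p = 0.895) for AKB and 0.17 (SE 0.086, adjusted p = 0.199) for pyruvate, and the latter was 0.03 without that pair (adjusted p = 0.916). The ratio of MDH2 to MDH1 in CPM was 2.00 to 2.73 in untreated, 2.12 to 2.83 in AKB and 2.56, 2.36, 3.71 and 3.73 in pyruvate libraries.

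**Figure D1:**
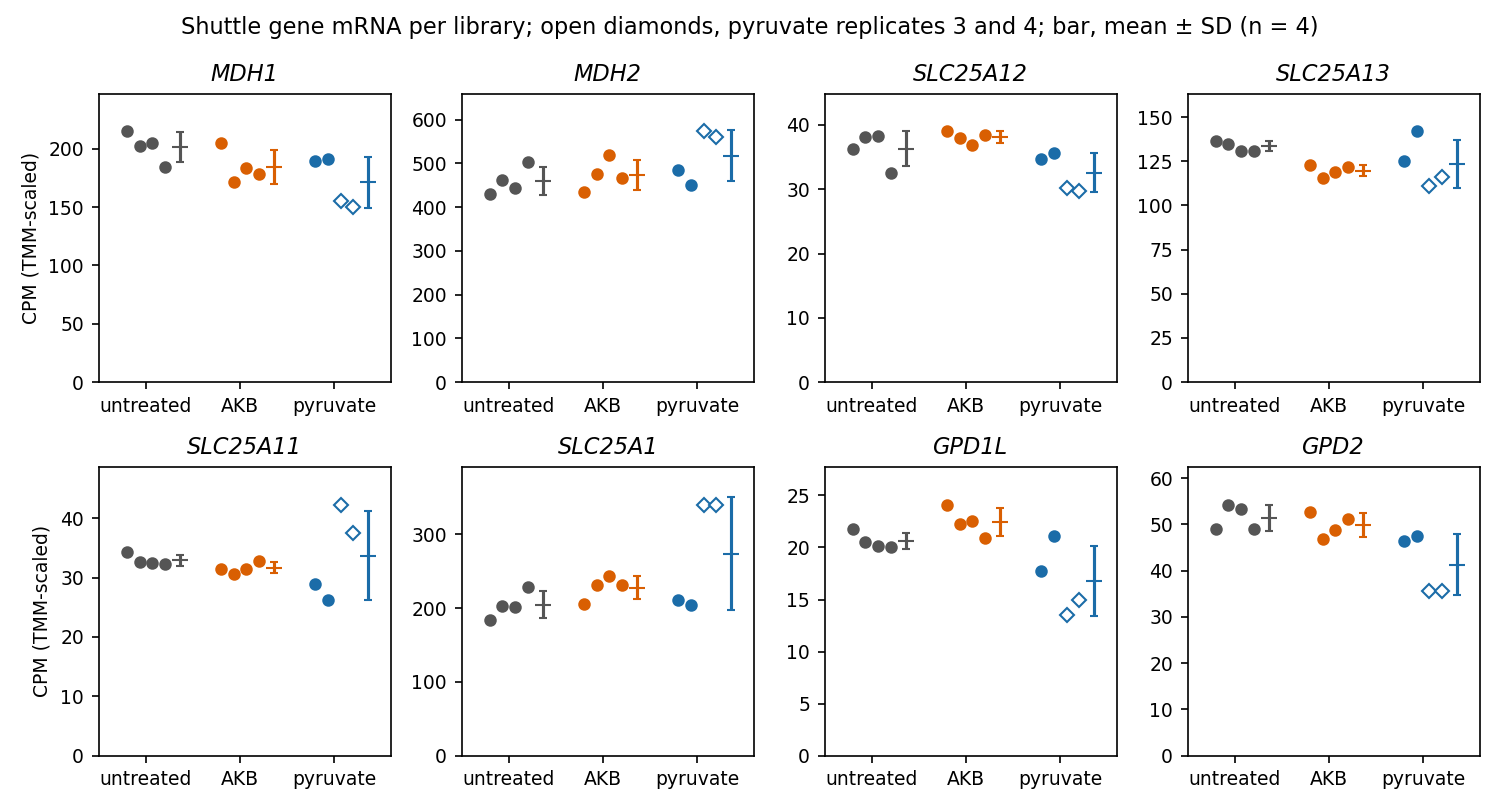
Levels of the 8 members in CPM (vertical axis, 1 panel per gene) in each library of the untreated, AKB and pyruvate groups, with the group mean and SD (n = 4). Pyruvate replicates 3 and 4, drawn as open diamonds, are the high pair for SLC25A1, SLC25A11 and MDH2, and the low pair for the other 5 genes, while the 4 AKB libraries of SLC25A13 lie at 115 to 123 CPM, under all untreated libraries.

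SLC25A13, the more abundant aspartate-glutamate carrier, was the 1 of 8 members whose AKB and untreated libraries did not overlap, where 17.2% of all genes tested did not. It measured 137, 135, 131 and 131 CPM in untreated cells and 123, 115, 119 and 122 CPM with AKB. The log2 difference of −0.16 (SE 0.073, 95% interval −0.31 to 0.0027, a fold of 1.11) did not pass the test in the 12-library fit (adjusted p = 0.390). In a fit of the 8 AKB and untreated libraries alone it did (−0.16, adjusted p = 0.0250), where 10.1% of all genes were called. Without pyruvate replicates 3 and 4 the adjusted p was 0.0511, and with a correction for GC content 0.0526 (log2 difference −0.13). With pyruvate it measured 125, 142, 111 and 116 CPM, on both sides of the untreated range, with a log2 difference of −0.11 (SE 0.073, adjusted p = 0.303) that was 0.002 without replicates 3 and 4.

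SLC25A12, the other calcium-stimulated carrier of this pair, overlapped between AKB and untreated cells. It measured 36.2, 38.2, 38.3 and 32.6 CPM in untreated cells, 39.0, 38.0, 36.8 and 38.5 CPM with AKB and 34.8, 35.7, 30.2 and 29.7 CPM with pyruvate. The log2 difference was 0.07 (SE 0.080, adjusted p = 0.796) for AKB and −0.16 (SE 0.080, adjusted p = 0.203) for pyruvate, and the latter was −0.04 without replicates 3 and 4 (adjusted p = 0.844). The ratio of SLC25A13 to SLC25A12 was 3.04 to 3.23 in the AKB libraries, under all 8 other libraries, which ran from 3.42 to 4.02 in untreated and 3.598 to 3.98 in pyruvate cells. This ratio was read after the values of both genes were known and was not tested.

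**Figure D2:**
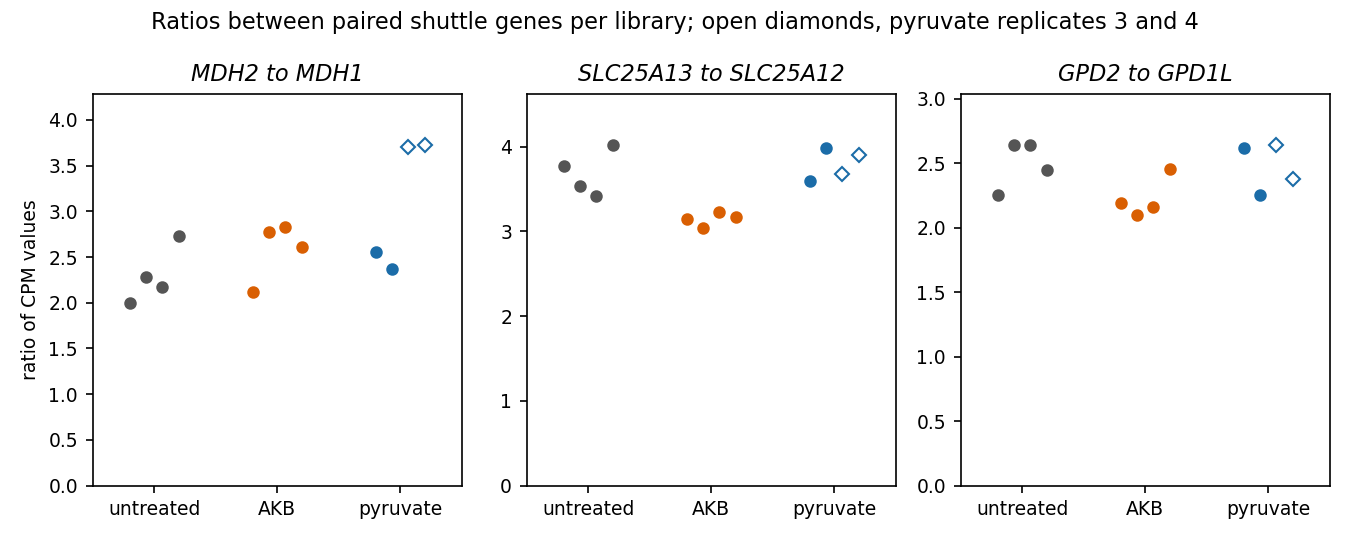
Ratios of CPM within each library (vertical axes) for MDH2 to MDH1, SLC25A13 to SLC25A12 and GPD2 to GPD1L in the untreated, AKB and pyruvate groups, 1 point per library, with pyruvate replicates 3 and 4 as open diamonds. The 4 AKB libraries sit lowest for SLC25A13 to SLC25A12 (3.04 to 3.23), and pyruvate replicates 3 and 4 sit highest for MDH2 to MDH1 (3.71 and 3.73).

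The oxoglutarate carrier SLC25A11 varied little in the untreated and AKB libraries and split in the pyruvate group. It measured 34.3, 32.6, 32.4 and 32.3 CPM in untreated cells and 31.5, 30.6, 31.5 and 32.8 CPM with AKB. With pyruvate, replicates 1 and 2 (28.8 and 26.2 CPM) were under every untreated library, and replicates 3 and 4 (42.3 and 37.5 CPM) were above all of them. The log2 difference was −0.06 (SE 0.13, adjusted p = 0.903) for AKB and 0.04 (SE 0.12, adjusted p = 0.856) for pyruvate. Without replicates 3 and 4 the pyruvate difference turned to −0.26 (95% interval −0.40 to −0.12, adjusted p = 0.102), and with the GC correction to −0.20 (adjusted p = 0.0801).

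The citrate carrier SLC25A1 had the largest pyruvate estimate of the group, and it rested on the same pair. It measured 184, 204, 202 and 228 CPM in untreated cells and 205, 232, 243 and 231 CPM with AKB. With pyruvate it measured 212, 204, 340 and 339 CPM, so replicates 1 and 2 lay within the untreated range and replicates 3 and 4 above it. The log2 difference was 0.16 (SE 0.16, adjusted p = 0.755) for AKB and 0.42 (SE 0.16, 95% interval 0.08 to 0.77, adjusted p = 0.121) for pyruvate. Without replicates 3 and 4 it was 0.02 (adjusted p = 0.928), and with the GC correction 0.05 (adjusted p = 0.508).

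The glycerol phosphate pair had lower estimates with pyruvate. GPD2, the inner-membrane dehydrogenase, measured 49.0, 54.3, 53.3 and 49.0 CPM in untreated cells, 52.7, 46.8, 48.7 and 51.2 CPM with AKB and 46.5, 47.6, 35.6 and 35.5 CPM with pyruvate. All 4 pyruvate libraries were under the untreated ones, which held for this 1 of 8 members, where 10.9% of all genes tested did not overlap. The log2 difference of −0.32 (SE 0.10, 95% interval −0.54 to −0.10) missed the threshold (adjusted p = 0.0915). DESeq2's Wald test called it (−0.31, adjusted p = 0.0333), where 13.7% of all genes were called. With the GC correction the log2 difference was −0.13 (adjusted p = 0.0838). Without replicates 3 and 4 the difference was −0.13 (adjusted p = 0.424), and for AKB it was −0.04 (SE 0.10, adjusted p = 0.907).

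GPD1L, the least abundant member, measured 21.8, 20.6, 20.2 and 20.02 CPM in untreated cells and 24.1, 22.3, 22.5 and 20.9 CPM with AKB. With pyruvate it measured 17.8, 21.1, 13.5 and 14.9 CPM, of which replicate 2 lay within the untreated range. The log2 difference was 0.12 (SE 0.12, adjusted p = 0.746) for AKB and −0.30 (SE 0.12, adjusted p = 0.139) for pyruvate, and the latter was −0.09 without replicates 3 and 4 (adjusted p = 0.734). The ratio of GPD2 to GPD1L ran from 2.25 to 2.64 in untreated, 2.10 to 2.46 in AKB and 2.25 to 2.64 in pyruvate libraries, so the groups overlapped.

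**Figure D3:**
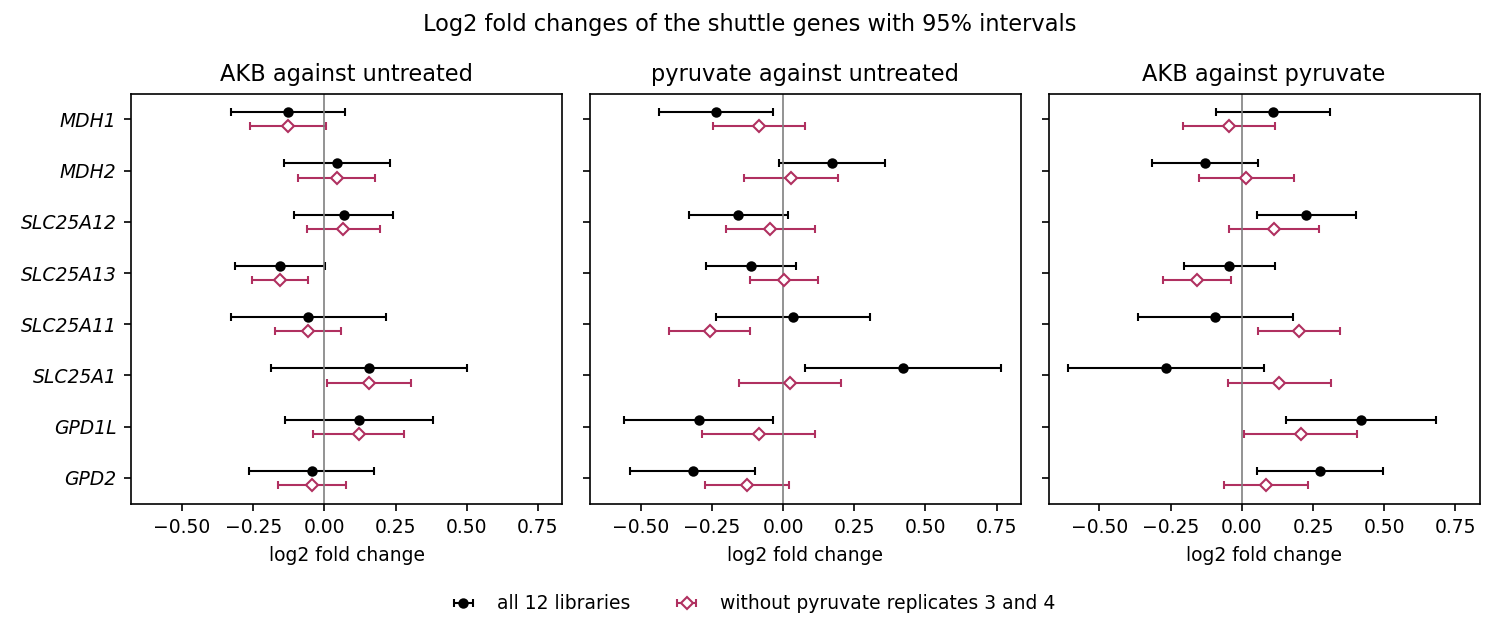
Log2 fold changes of the 8 members (horizontal axis) with 95% intervals in the 3 comparisons, from all 12 libraries and without pyruvate replicates 3 and 4. The pyruvate estimate of SLC25A1 goes from 0.42 to 0.02 and that of SLC25A11 from 0.04 to −0.26 when the pair is left out.

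AKB differs from pyruvate by an added methylene group, and both were given at 2 mM for 24 h. The 8 members were compared between them within the fit of all genes. GPD1L was nearest the threshold, with a log2 difference of 0.42 for AKB over pyruvate (SE 0.12, 95% interval 0.16 to 0.68, adjusted p = 0.0724), and AKB was higher than pyruvate in all libraries except that pyruvate replicate 2 (21.1 CPM) passed AKB replicate 4 (20.9 CPM). It was called with the GC correction (0.35, adjusted p = 0.0136) and by DESeq2's Wald test (0.40, adjusted p = 0.0188). Of all genes 14.6% and 11.3% were called there. Without pyruvate replicates 3 and 4 the GPD1L difference was 0.21 (adjusted p = 0.213). SLC25A12 was the 1 of 8 members that did not overlap between the groups, where 11.6% of all genes tested did not, with a log2 difference of 0.23 (SE 0.080, adjusted p = 0.119) that was 0.11 without the pair (adjusted p = 0.405). For GPD2 it was 0.27 (SE 0.10, adjusted p = 0.133), and 0.08 without the pair (adjusted p = 0.525). For SLC25A1 it was −0.27 (SE 0.16, adjusted p = 0.318), and without the pair it turned to 0.13 (adjusted p = 0.390). The other 4 members had adjusted p from 0.368 to 0.731, and their estimates lay between −0.13 (MDH2) and 0.11 (MDH1). Without the pair these were −0.04 for MDH1, 0.02 for MDH2, 0.20 for SLC25A11 and −0.16 for SLC25A13, with adjusted p from 0.108 to 0.934.

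The split of the pyruvate libraries followed GC content across the members. Between replicates 3 and 4 and replicates 1 and 2 the difference in log2 CPM was 0.71 for SLC25A1, whose longest transcript has 65.6% GC, 0.53 for SLC25A11 (59.3%) and 0.28 for MDH2 (52.3%). It was −0.40 for GPD2, which has the lowest GC of the group (40.3%), and −0.45 for GPD1L (44.3%). MDH1, SLC25A12 and SLC25A13 lay between, at −0.32, −0.23 and −0.23 with 45.9%, 44.2% and 44.9% GC. Over the 8 members Pearson's r of the difference with GC was 0.970, as a description of genes measured in the same 4 libraries. Over 13047 genes with a GC value r was 0.641, with a slope of 0.44 per 10 percentage points. The members' distances from this linear fit ran from −0.27 (GPD1L) to 0.09 (MDH2), with −0.22 for MDH1. At their GC content the fit gave −0.17 for GPD1L and −0.10 for MDH1, so the split of these genes was larger than the fit gives. The part of this split in the pyruvate results was not tested beyond the values given with and without the pair.

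**Figure D4:**
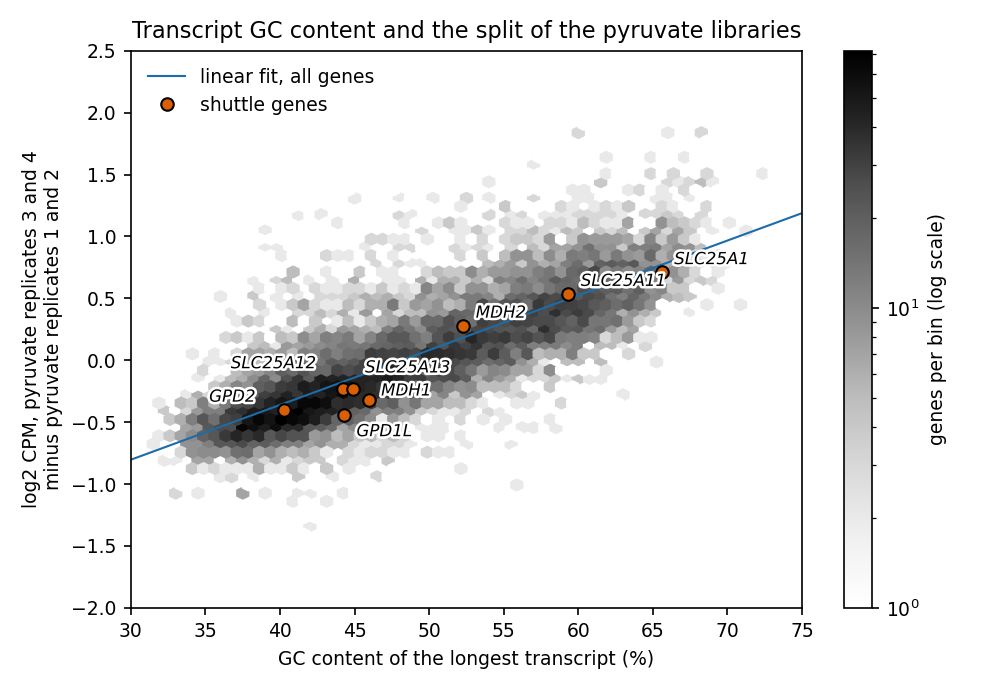
Difference in log2 CPM between pyruvate replicates 3 and 4 and pyruvate replicates 1 and 2 (vertical axis) against GC content of the longest transcript in percent (horizontal axis), for 13047 genes shaded by number per bin on a log scale, with the linear fit over all genes. The 8 members are marked, from SLC25A1 at 65.6% and 0.71 to GPD2 at 40.3% and −0.40, and 78 genes lie outside the axes.

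Leaving out pyruvate replicate 1 or 2 added calls among the members. Without pyruvate replicate 2, 5 members passed the test for pyruvate against untreated, where 26.1% of all genes did. These were SLC25A1 (0.54, adjusted p = 0.0267), MDH1 (−0.29, adjusted p = 0.0422), SLC25A13 (−0.19, adjusted p = 0.0386), GPD1L (−0.43, adjusted p = 0.0226) and GPD2 (−0.39, adjusted p = 0.0243). For AKB against pyruvate the same omission gave 3 calls, SLC25A12, GPD1L and GPD2, where 15.3% of all genes passed. Without pyruvate replicate 1 the calls against untreated were SLC25A1 (0.54, adjusted p = 0.0364) and GPD2 (−0.37, adjusted p = 0.0315). There 19.1% of all genes passed. For AKB over pyruvate the same omission called GPD1L (0.44, adjusted p = 0.0484), where 12.8% of all genes passed. Leaving out any 1 of the other 10 libraries called no member.

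The authors' deposited tables of their own comparisons gave other values for some members. The authors' deposited table for pyruvate put SLC25A11 lower (log2 −0.27, adjusted p = 0.0431) and SLC25A13 lower (−0.37, adjusted p = 0.0401) than in untreated cells, after its sign was turned to pyruvate minus untreated. These were 2 of 8 members, where 12% of the genes with an adjusted p passed in the authors' deposited table. The authors' deposited table for AKB against pyruvate called 1 member, GPD1L (0.30, adjusted p = 0.0380), where 10% passed. The authors' deposited table for AKB against untreated called 0 of 8, with a lowest adjusted p of 0.423 for SLC25A13, where 4.9% passed. For GPD2 with pyruvate the authors' deposited table gave −0.06 (adjusted p = 0.888), against −0.32 from the counts. For GPD2 with AKB the authors' deposited table gave 0.24 (adjusted p = 0.704), where the counts gave −0.04. Settings behind these tables were not given in the sources used here, and the cause of the difference was not tested.

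**Figure D5:**
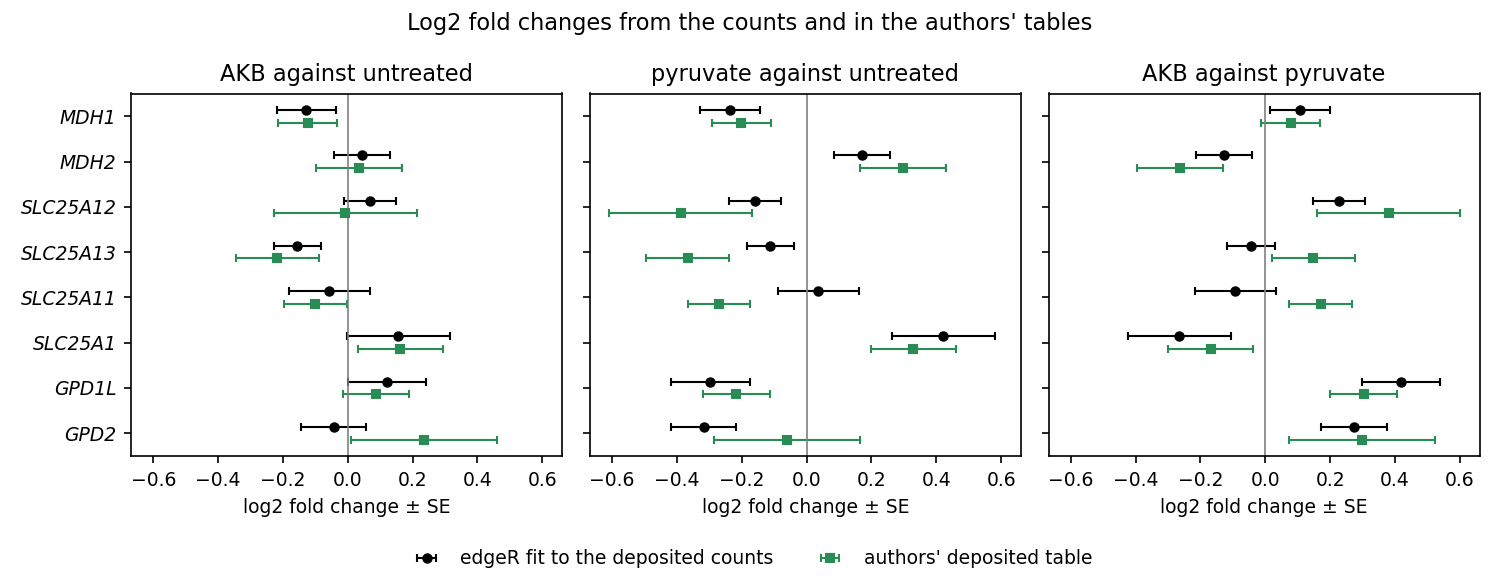
Log2 fold changes ± SE (horizontal axis) of the 8 members from the fit to the counts (circles) and from the authors' deposited tables (squares), with 1 panel for each of the 3 comparisons. The largest gaps for pyruvate are those of SLC25A11 (0.04 against −0.27), SLC25A13 (−0.11 against −0.37) and GPD2 (−0.32 against −0.06).

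The partners of the shuttles outside the group gave 1 call. Of 8 listed partners 6 were tested, and 0 were called for AKB, 0 for pyruvate and 1 higher for AKB against pyruvate. Of all genes tested 1.97%, 1.95% and 3.13% were called in the same order. With the GC correction 2 were called lower for pyruvate, GOT1 and UCP2 (log2 −0.43, adjusted p = 0.0270), where 9.49% of all genes were called. The gene called for AKB against pyruvate was UCP2, a carrier of the inner membrane, at 109 to 115 CPM with AKB and 86.0 to 98.7 CPM with pyruvate. Its log2 difference was 0.28 (SE 0.060, adjusted p = 0.0349), and it was 0.29 without pyruvate replicates 3 and 4 (adjusted p = 0.0178). The cytosolic transaminase GOT1 was nearest the threshold for AKB (−0.11, adjusted p = 0.539) and UCP2 for pyruvate (−0.23, adjusted p = 0.0643), with −0.24 for the latter without the pair (adjusted p = 0.0788). The medians of the 6 were −0.05, −0.12 and −0.05 in the 3 comparisons, beside 0.006, −0.008 and 0.03 over all genes tested. The medians of the 8 members were −0.0005, −0.14 and 0.03.

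Among enzymes of malate and citrate metabolism and of steps next to it, IDH2 and PCK2 were among those called. Of 12 listed, 11 were tested, with 1 higher and 1 lower for AKB against untreated cells, where 1.97% of all genes were called. Without pyruvate replicates 3 and 4 there were 3 higher (IDH2, ME1 and ACLY) and 1 lower (PCK2), where 9.17% of all genes were called. With the GC correction there were 2 higher (IDH2 and ME1) and 1 lower (PCK2), where 8.44% of all genes were called. IDH2, the mitochondrial NADP-dependent isocitrate dehydrogenase, rose with AKB from 45.7 to 50.9 CPM in untreated libraries to 64.7 to 71.3 CPM (log2 0.54, SE 0.086, adjusted p = 0.00854). With pyruvate IDH2 measured 48.6, 53.7, 64.9 and 59.9 CPM, and it was not called against untreated cells in the 12-library fit. PCK2, which turns oxaloacetate into phosphoenolpyruvate in mitochondria, was at 58.4 to 59.0 CPM in untreated libraries. It fell with AKB to 35.8 to 40.9 CPM (log2 −0.62, SE 0.13, adjusted p = 0.0326) and with pyruvate to 28.0 to 43.5 CPM (log2 −0.74, SE 0.13, adjusted p = 0.0206). Of all genes 1.97% and 1.95% were called in these comparisons. Without pyruvate replicates 3 and 4 the pyruvate difference of PCK2 was −1.06 (adjusted p = 1.97e-05), where 0.710% of all genes were called. For AKB against pyruvate PCK2 (0.43, adjusted p = 0.00892) and IDH2 (0.43, adjusted p = 0.00967) were then called, where 4.36% were. With the GC correction IDH1 was called for pyruvate (−0.32, adjusted p = 0.0119), where 9.49% were. IDH1 (0.36), IDH2 (0.39) and PCK2 (0.30) were called there for AKB against pyruvate, where 14.6% were. The 2 treatments share the untreated libraries, so their values for PCK2 are not independent.

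By likeness of pattern over the 12 libraries, among 10016 genes with at least 5 CPM, the closest genes by Pearson's r of log2 CPM were read for each member. MDH2 was most like FXYD5 (0.993) and XAGE1A (0.989), and SLC25A1 most like STK11 (0.992) and DPP7 (0.991). MDH1 was most like TRIM13 (0.986) and CCT4 (0.985), and GPD2 most like OXR1 (0.979) and DYM (0.979). SLC25A12 was most like TTBK2 (0.978) and ACSL4 (0.970), GPD1L most like DMD (0.978) and CDCA7 (0.977), and SLC25A13 most like VPS45 (0.958) and UTP15 (0.957). SLC25A11 had the lowest best match, RCCD1 at 0.943 with CSRP1 at 0.939. Over the 10 libraries without pyruvate replicates 3 and 4 the best match stayed the same gene only for MDH2. All of these r share the same libraries and the split along GC content.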

How the data were processed

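The 12 libraries were grouped by the treatment in their labels. The authors deposited estimated counts for each gene, for which the submitters' processing notes name Salmon 1.2.1, with R 3.6.3 and DESeq2 1.26.0. Build, annotation and settings were not given in the sources used here. All count values are whole, so rounding changed none. The authors also deposited 3 comparison tables, which per the file headers hold a mean normalised signal, a log2 fold change and its error, a test score, and a p-value before and after adjustment.

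Genes were kept by edgeR's filterByExpr with a minimum count of 10 (13598 of 17786), scaled by TMM and tested in R 4.3.3 with edgeR 4.0.16 (quasi-likelihood, 12 libraries, 1 term per group). Adjusted p-values are by Benjamini-Hochberg over all genes tested. CPM are on TMM-scaled library sizes. The GC correction fitted a lowess curve (span 0.3) of log2 CPM on transcript GC per library. Symbols matched for 16933 identifiers (95.2%) and GC content from GENCODE 29 for 16904 (95.0%). DESeq2 1.42.0, limma 3.58.1 and the other alternatives are described in the closing section.

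Named were all 8 members, and of each list up to 3 called genes with the smallest adjusted p per comparison, or the 1 nearest the threshold; PSAT1, GPD1, EPCAM, CD3E, PDGFRB, the genes overlapping members and those called only in an alternative fit were named after their values were seen. The members and lists were chosen with earlier results of these data known. MDH1B and ME3 were not analysed here, and a further listed gene's result is not reported here.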

Additional observations from a re-analysis of the deposited data

Results flagged for a closer look

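In 1 of 24 sets of 4 libraries (8 members in 3 groups), a library stood far from the others. SLC25A11 in untreated replicate 1 was at 34.3 CPM, while the other 3 untreated libraries lay between 32.3 and 32.6 CPM. The gap was 0.859 of the whole range, above the critical value of Dixon's test for 4 values. Chance alone gives about 1 such set in 20.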

How the results depend on the processing

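Of 552 values of members under alternatives, 521 kept their direction and their side of the threshold, 17 passed the threshold only under the alternative and 14 changed sign. The sign changes for pyruvate against untreated were those of SLC25A11 with the GC correction (−0.200), with that and the replicate block (−0.199), without pyruvate replicates 3 and 4 (−0.258) and without pyruvate replicate 3 or 4 alone (−0.0769 and −0.0036), and of SLC25A13 without replicates 3 and 4 (0.00206). For AKB against pyruvate they were those of MDH1 (−0.0442), MDH2 (0.0156), SLC25A1 (0.132) and SLC25A11 (0.200) without replicates 3 and 4, of SLC25A11 with the GC correction (0.0651), with that and the block (0.0660) and without pyruvate replicate 3 (0.0172), and of SLC25A13 without pyruvate replicate 2 (0.0314). Leaving out 1 library, SLC25A11 ran from −0.0769 to 0.137 for pyruvate and from −0.195 to 0.0172 for AKB against pyruvate, and SLC25A13 from −0.106 to 0.0314 for the latter. None of these 14 values was called, and their cause was not tested.

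Members called for AKB against untreated went from 0 to 1 in the 8 libraries alone, where 10.1% of all genes were called. For pyruvate against untreated they went to 1 with DESeq2's Wald test, where 13.7% of all genes were called. They also went to 1 with the block and GC correction (MDH1, −0.18, adjusted p = 0.0382), where 1435 of 13598 genes were called. For AKB against pyruvate they went to 1 with the Wald test (11.3% of all genes) and 1 with the GC correction (14.6%). With the block and GC correction it was also 1, where 1974 of 13598 genes were called. Leaving out 1 library gave 0 to 0, 0 to 5 and 0 to 3 members. The counts of 5 and 3, without pyruvate replicate 2, stand beside 26.1% and 15.3% of all genes.

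Genes called for AKB against untreated were 268, and 537 by the Wald test, 1148 with the GC correction, 1339 in the 8 libraries alone and 1278 without pyruvate replicates 3 and 4. For pyruvate against untreated they were 265, and 152 with no filter, 1864 by the Wald test, 1290 with the GC correction, 16 in the 8 libraries alone and 99 without replicates 3 and 4. For AKB against pyruvate they were 426, and 214 with no filter, 1541 by the Wald test, 1981 with the GC correction and 6 in the 8 libraries alone. Leaving out 1 library gave 92 to 357, 32 to 3611 and 68 to 2111, the highest each time without pyruvate replicate 2.

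The replicate numbers were not found to pair the libraries: 3 of 12 same-number pairs correlated above 0.1 (range −0.0996 to 0.202), and 5 of 12 libraries correlated best with their own number. With the replicate number as a block, 158, 565 and 356 genes were called and 0 members, and with block and GC correction 930, 1435 and 1974 genes.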

Other observations

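Other routes for reducing equivalents were read from the same fit. The list counts below stand beside the shares of all genes called for AKB, pyruvate and AKB against pyruvate. These shares were 1.97%, 1.95% and 3.13% with all 12 libraries. Without pyruvate replicates 3 and 4 they were 9.17%, 0.71% and 4.36%, and with the GC correction 8.44%, 9.49% and 14.6%. Of 45 other listed carriers of the SLC25 family 37 were tested, with 0 called for AKB, 0 for pyruvate and 2 higher for AKB against pyruvate. SLC25A43 was at 15.3 to 19.6 CPM with AKB and 9.66 to 13.5 CPM with pyruvate (log2 0.64, SE 0.12, adjusted p = 0.0185). SLC25A37 (mitoferrin), which brings iron into mitochondria for haem, was at 352 to 370 CPM with AKB and 299 to 323 CPM with pyruvate (log2 0.22, SE 0.051, adjusted p = 0.0406). Both calls held without pyruvate replicates 3 and 4 (adjusted p = 0.0483 and 0.0403). Without that pair MTCH2 was also called for AKB against pyruvate (−0.20, adjusted p = 0.0404). For AKB against untreated the same omission gave 2 higher, SLC25A37 (0.15, adjusted p = 0.0384) and SLC25A29 (0.66, adjusted p = 0.0167), and 1 lower, SLC25A32 (−0.22, adjusted p = 0.0218). The GC correction gave 3 higher (SLC25A37, SLC25A30 and SLC25A29) and 1 lower (SLC25A32) there, 1 higher for pyruvate (MTCH2), and 3 higher (SLC25A43, SLC25A37 and MTCH1) and 1 lower (MTCH2) for AKB against pyruvate. Nearest the threshold with all 12 libraries in the other comparisons were SLC25A37 for AKB (0.15, adjusted p = 0.190) and SLC25A32, a carrier of folate, for pyruvate (−0.33, adjusted p = 0.0684, and −0.17 without the pair, adjusted p = 0.240).

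Of 9 listed enzymes that reduce ubiquinone 7 were tested and 0 were called in any comparison of the 12-library fit with edgeR. SDHD was called lower for AKB without pyruvate replicates 3 and 4 (−0.21, adjusted p = 0.0258). With the GC correction SDHD was called lower for AKB (−0.17, adjusted p = 0.0401) and for AKB against pyruvate (−0.16, adjusted p = 0.0371), and SDHB higher for pyruvate (0.19, adjusted p = 0.0255). The nearest with all 12 libraries were SDHD for AKB (−0.21, adjusted p = 0.235), SDHB for pyruvate (0.18, adjusted p = 0.0870) and DHODH for AKB against pyruvate (−0.29, adjusted p = 0.112). Without the pair SDHB was at 0.15 (adjusted p = 0.198) and DHODH at −0.20 (adjusted p = 0.340). All 8 listed genes of glycerol phosphate metabolism and of steps next to it were tested and 0 were called in that fit. Nearest in the same order were GNPAT (−0.16, adjusted p = 0.554), TPI1 (0.43, adjusted p = 0.0626) and GK (0.40, adjusted p = 0.0574). With the GC correction TPI1 was called for pyruvate (0.24, adjusted p = 0.0392) and for AKB against pyruvate (−0.27, adjusted p = 0.0183), and GNPAT for pyruvate (−0.23, adjusted p = 0.0160). All 8 other genes of NADH oxidation were tested and 0 were called with all 12 libraries, without the pair or with the GC correction, with NQO1 (0.14, adjusted p = 0.358), CYB5R3 (0.69, adjusted p = 0.0945) and AIFM2 (−0.21, adjusted p = 0.192) nearest. Without pyruvate replicates 3 and 4 the pyruvate difference of CYB5R3 was 0.15 (adjusted p = 0.742) and that of TPI1 0.20 (adjusted p = 0.289). For AKB against pyruvate GK was then at 0.26 (adjusted p = 0.162) and AIFM2 at −0.09 (adjusted p = 0.626).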
